A study of Mus musculus with 6 samples.

Results

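The troponin and tropomyosin genes encode the calcium switch of the thin filament, and 10 of them were followed in the soleus of mice with and without Gna13 in muscle. They were chosen by symbol: Tnnt1, Tnni1 and Tnnc1 of the slow troponin complex, Tnnt3, Tnni2 and Tnnc2 of the fast complex, the cardiac troponin T gene Tnnt2, and the tropomyosin genes Tpm1, Tpm2 and Tpm3. These 10 of 23152 genes on the array were read by 114 of the 233753 probe sets that carry exactly 1 gene symbol. Gene values are log2 values from robust multi-array averaging (RMA), averaged over the probe sets of a gene.

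The muscles came from male mice killed at 18 weeks of age after a 14 h fast. The control group (WT, 3 mice) was Gna13 flox/flox, with both Gna13 alleles flanked by loxP sites. The knockout group (Gna13 MKO, called MKO here, 3 mice) was Ckmm-Cre; Gna13 flox/flox, so the floxed alleles were common to both groups and Cre was carried by MKO alone. Ckmm-Cre uses the promoter of muscle creatine kinase, which is active in striated muscle fibres, so vessels, fibroblasts and blood cells of the muscle are not targeted. Each mouse gave 1 array, and a Cre control without floxed alleles was not used here.

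Troponin C binds calcium, troponin I holds the filament off at rest, and troponin T anchors both to tropomyosin, which lies along actin and blocks or exposes the myosin sites. Each troponin subunit has a slow and a fast skeletal gene that follow the fibre type, and tropomyosin of slow fibres comes mainly from Tpm3 and Tpm2, that of fast fibres from Tpm1 and Tpm2. The mouse soleus holds slow type I and fast type IIa fibres side by side, so both sets are at work in it. Troponin T and tropomyosin genes are also known for alternative exons, and Tpm1, Tpm2 and Tpm3 make isoforms in smooth muscle and other cells as well.

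The arrays had median values between 4.87 and 4.95 over all probe sets. Among markers of fibre type, the slow genes Myh7 (myosin) and Atp2a2 (calcium pump) stood above 99.8% and 99.9% of gene values. The fast IIa myosin gene Myh2 stood above 99.9%. The fast calcium pump gene Atp2a1 stood above 99.93% and the fast myosin gene Myh1 above 99.56%. The slow light chain gene Myl2 stood above 94.27%. Myh4, the myosin of IIb fibres, stood above 98.95%. Slow and fast genes were thus high together, and these ranks do not establish soleus identity. Myh4 stood at 10.9, 9.48 and 11.7 in WT replicates 1 to 3. In MKO replicates 1 to 3 it stood at 5.11, 7.94 and 11.5, the widest spread among the fibre type markers. The mean of the 7 Gna13 probe sets was 6.53, 6.92 and 6.74 in WT against 6.63, 6.78 and 6.92 in MKO. Among them probe set 17257825, singled out after its values were seen, stood at 5.48, 6.23 and 6.16 in WT and at 3.43, 4.25 and 4.33 in MKO. That probe set was lower in every MKO array, by −1.95 (SE 0.40), as were 5.05% of all rows. By contrast 3 others were higher in every MKO array, by 0.51 to 0.67, as were 4.81% of all rows. None of these passed after adjustment over all rows (adjusted p = 0.977 for each by limma). The sources used here do not say which exons the Gna13 probe sets read. In bulk muscle, fewer cells of a type and less RNA per cell cannot be told apart.

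The stretches upstream of the start of Tnnc1, Tnnc2 and Tnnt1 are shown because these are slow and fast genes active in the same muscle, whose levels are compared mouse by mouse further on. Each run is the 250 bases before the RefSeq start in GRCm38.p6, written 5′ to 3′ on the strand of the gene, with capitals at matches on either strand to the E-box CANNTG, bound by myogenic factors, or the MCAT element CATTCC, bound by TEAD factors.
Tnnc1 (chr14:31208062-31208311, + strand): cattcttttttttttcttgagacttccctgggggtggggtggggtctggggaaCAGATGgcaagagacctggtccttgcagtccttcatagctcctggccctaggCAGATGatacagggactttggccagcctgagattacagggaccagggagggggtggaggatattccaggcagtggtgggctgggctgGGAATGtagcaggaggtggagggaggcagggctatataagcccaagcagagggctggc
Tnnc2 (chr2:164779735-164779984, - strand): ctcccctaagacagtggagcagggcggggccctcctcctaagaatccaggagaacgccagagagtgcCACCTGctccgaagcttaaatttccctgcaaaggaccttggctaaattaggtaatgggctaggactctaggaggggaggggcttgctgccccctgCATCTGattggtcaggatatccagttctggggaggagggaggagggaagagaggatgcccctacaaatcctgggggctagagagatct
Tnnt1 (chr7:4515976-4516225, - strand): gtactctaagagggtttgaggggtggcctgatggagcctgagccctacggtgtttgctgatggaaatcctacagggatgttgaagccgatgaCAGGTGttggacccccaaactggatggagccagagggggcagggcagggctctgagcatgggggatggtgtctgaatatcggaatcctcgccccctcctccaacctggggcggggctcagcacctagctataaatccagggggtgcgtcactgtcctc
Tnnc1 held 1 MCAT match, beginning 58 bases before the start, and E-box matches beginning 197 and 145 bases before it. In Tnnc2 E-box matches began 183 and 88 bases before the start, and in Tnnt1 1 E-box match began 158 bases before it. Over 11 promoter entries of 8 of the 10 genes, all 11 held an E-box match, 3 an MCAT match and 0 a match to a MEF2-type core. The shares over 32851 promoters of that length were 66.2%, 12.6% and 3.2%, and a match is a description of letters.

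No member passed the adjusted threshold of 0.05. Of the 10, 9 differed between the groups by less than 0.2 on the log2 scale, as did 76% of all genes. With the median of a gene's probe sets in place of their mean, Tnni1 (−0.31) and Tnnt2 (0.41) also lay beyond 0.2. Differences are given as MKO minus WT from limma, with the standard error (SE), the 95% confidence interval and p-values adjusted by Benjamini-Hochberg over all genes. Of the members 5 were higher and 5 lower, where 46.6% of all genes were higher, with a median difference of 0.01 against −0.01 over all genes. The share of all genes called at the adjusted threshold was 0%, and 4.33% had an unadjusted limma p under 0.05, a mark that 1 member, Tpm3, reached. WT and MKO values did not overlap in 1 of 10 members, again Tpm3, against 9.25% of all genes (4.99% lower and 4.26% higher). Every member other than Tnnt2 stood above at least 96.0% of gene values on the array, a rank that probe affinity also sets, so levels of different genes are not compared.

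**Figure D1:**
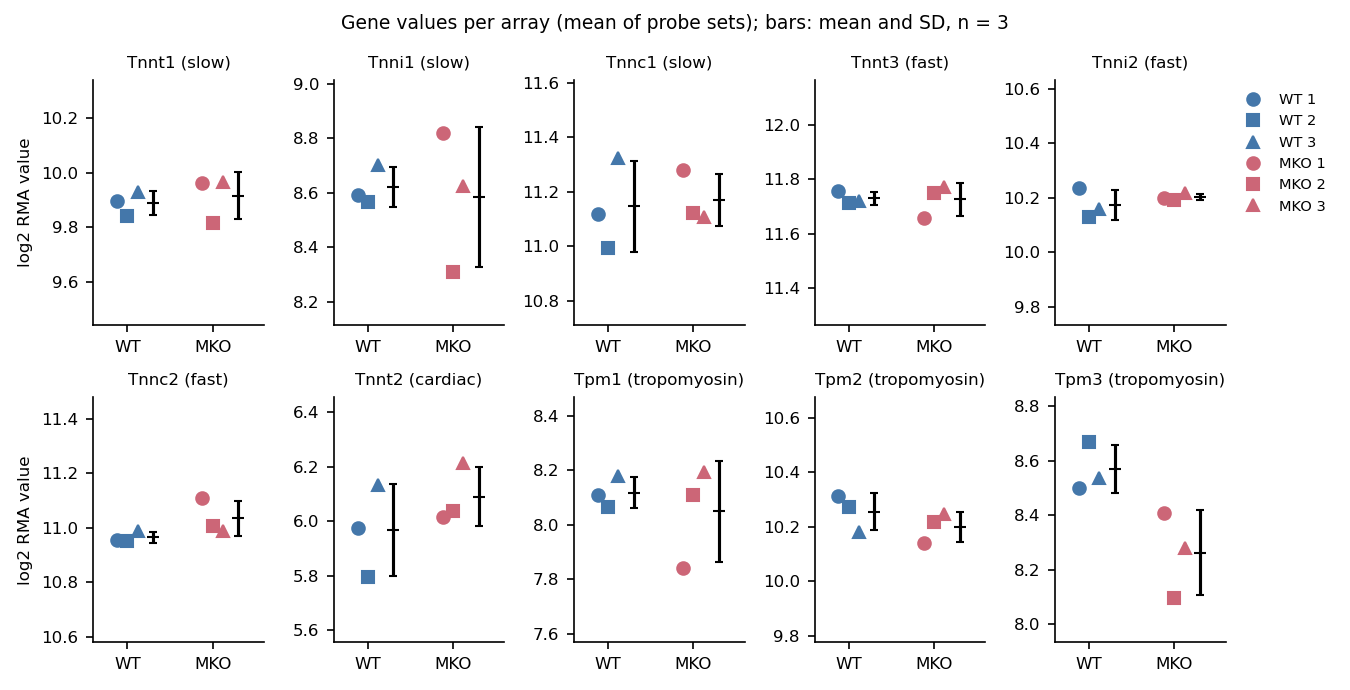
Log2 RMA value of each of the 10 genes on each array (vertical axis, equal span of 0.9 in every panel), with WT in blue, MKO in red, a marker shape per replicate number, and black bars for the group mean and SD (n = 3). The groups overlap in 9 panels, and in the Tpm3 panel all 3 MKO arrays lie below the 3 WT arrays.

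Among the slow troponins, Tnnt1, which tethers the slow complex to tropomyosin, stood at 9.90, 9.84 and 9.93 in WT and at 9.96, 9.82 and 9.97 in MKO. The lowest and the highest of the 6 values were both in MKO, and the difference was 0.03 (SE 0.07, 95% interval −0.13 to 0.19, adjusted p = 0.9997 by limma). Tnni1, the inhibitory subunit of slow fibres, stood at 8.59, 8.56 and 8.70 in WT and at 8.82, 8.31 and 8.62 in MKO. MKO replicates 1 and 2 bracketed all WT arrays, and the difference was −0.04 (SE 0.12, interval −0.29 to 0.22). Tnnc1, the calcium sensor of slow fibres and heart, stood at 11.12, 11.00 and 11.33 in WT and at 11.28, 11.12 and 11.11 in MKO, a difference of 0.02 (SE 0.08, interval −0.16 to 0.20). Its WT arrays spanned the MKO arrays at both ends.

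The WT and MKO arrays overlapped in all 3 fast troponins. Tnnt3, the fast troponin T, stood at 11.76, 11.71 and 11.72 in WT and at 11.66, 11.75 and 11.77 in MKO, a difference of −0.0040 (SE 0.06) whose interval corresponds to 0.918- to 1.08-fold. Tnni2, the fast inhibitory subunit, stood at 10.23, 10.13 and 10.16 in WT and at 10.20, 10.19 and 10.22 in MKO, with a difference of 0.03 (SE 0.07, interval −0.12 to 0.17). All MKO arrays of Tnni2 lay within the WT range. Tnnc2, the fast calcium sensor, stood at 10.95, 10.95 and 10.99 in WT and at 11.11, 11.01 and 10.99 in MKO. Its difference of 0.07 (SE 0.06, interval −0.06 to 0.20) was the largest among the 6 skeletal troponins over all probe sets. Its lowest MKO array touched the highest WT array. Over probe sets with a mean of at least 9 the Tnnc2 difference was 0.03 (SE 0.05). The largest in size among the 6 was then that of Tnni1, −0.09 (SE 0.06).

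Tnnt2, the troponin T of heart and of developing skeletal muscle, had the widest interval. It stood at 5.98, 5.80 and 6.13 in WT and at 6.02, 6.04 and 6.22 in MKO, a difference of 0.12 (SE 0.13, interval −0.17 to 0.41). The groups overlapped. None of its 13 probe sets reached a mean of 9, and 5 of 8 cardiac muscle markers lay below the median gene. Tnni3, the troponin I of heart, differed by −0.02 (SE 0.17).

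Tpm1, which makes the alpha tropomyosin of fast fibres, stood at 8.11, 8.07 and 8.18 in WT and at 7.84, 8.11 and 8.20 in MKO. MKO replicate 1 was the lowest of the 6 arrays and MKO replicate 3 the highest, and the difference was −0.07 (SE 0.11, interval −0.30 to 0.16). Tpm2, the beta chain shared by slow and fast fibres, stood at 10.31, 10.27 and 10.18 in WT and at 10.14, 10.22 and 10.24 in MKO, with a difference of −0.05 (SE 0.07, interval −0.21 to 0.10). Again the groups overlapped.

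Tpm3, the slow alpha tropomyosin, stood at 8.50, 8.67 and 8.54 in WT and at 8.41, 8.10 and 8.28 in MKO. All MKO arrays lay below all WT arrays, and the mean was 8.26 ± 0.16 against 8.57 ± 0.09 (SD, n = 3). The limma difference was −0.31 (SE 0.10, interval −0.53 to −0.09), a 1.24-fold lower value with an unadjusted p of 0.00994 and an adjusted p of 0.9997. It did not pass. Its size depended on which probe sets were averaged. Over the 4 Tpm3 probe sets with a mean of at least 9, the gene stood at 12.22, 12.18 and 12.27 in WT and at 12.30, 12.16 and 12.19 in MKO. The groups then overlapped, and the difference was −0.01 (SE 0.05, interval −0.12 to 0.11). The level of 9 was chosen after seeing the data.

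**Figure D2:**
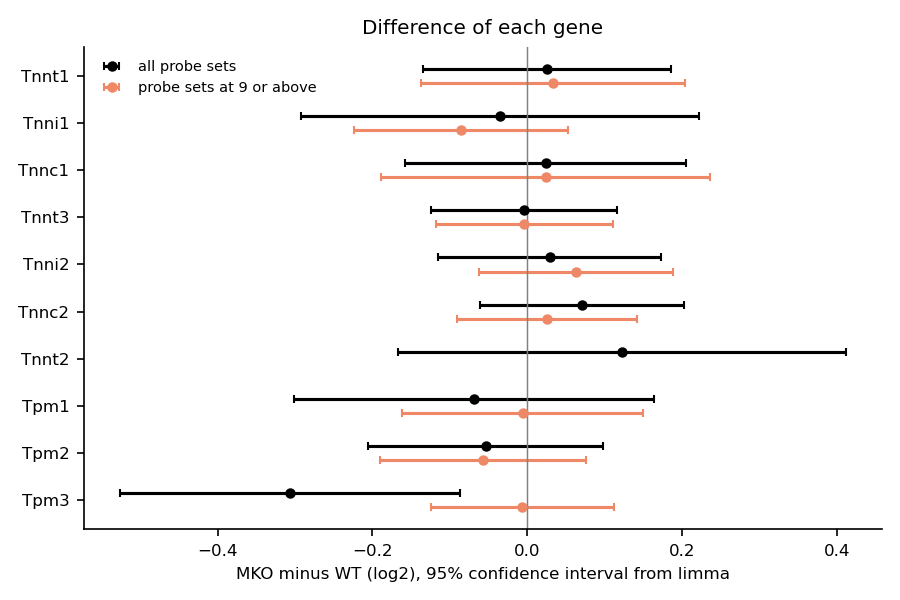
Difference MKO minus WT of each gene (horizontal axis, log2) with its 95% confidence interval from limma, over all probe sets (black) and over probe sets with a mean of at least 9 (orange). Tpm3 moves from −0.31 to −0.01 between the summaries, and every interval of the brighter probe sets includes 0.

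Of the 9 Tpm3 probe sets 7 were lower and 2 higher in MKO, and the 4 at or beyond −0.46 all had a mean below 9. Probe sets 17302608 and 17302609 had the smallest p. The former stood at 7.26, 7.10 and 7.10 in WT and at 6.66, 6.62 and 6.60 in MKO, a difference of −0.53 (SE 0.18). The latter stood at 6.71, 6.96 and 6.43 in WT and at 6.17, 5.62 and 6.32 in MKO, a difference of −0.67 (SE 0.27). Both kept the MKO arrays below the WT arrays, as did 5.05% of all rows of the table, and neither passed after adjustment over all rows (adjusted p = 0.977 for both by limma). These 2 probe sets are numbered apart from the other 7. In the order of probe set numbers they lie between Slitrk5 and 4930524C18Rik, and 19 of 20 genes around them are on chromosome 14 in RefSeq, where Tpm3 itself is on chromosome 3. RefSeq places 1 of 3 Tpm3 pseudogenes, Tpm3-rs7, on chromosome 14 between the same genes. The sources used here do not say which transcript the pair reads, and its values are uncertain as a measure of Tpm3. Without the pair, Tpm3 stood at 8.93, 9.14 and 9.04 in WT and at 8.98, 8.66 and 8.80 in MKO, the groups overlapped, and the difference was −0.22 (SE 0.10, adjusted p = 0.9997 by limma).

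**Figure D3:**
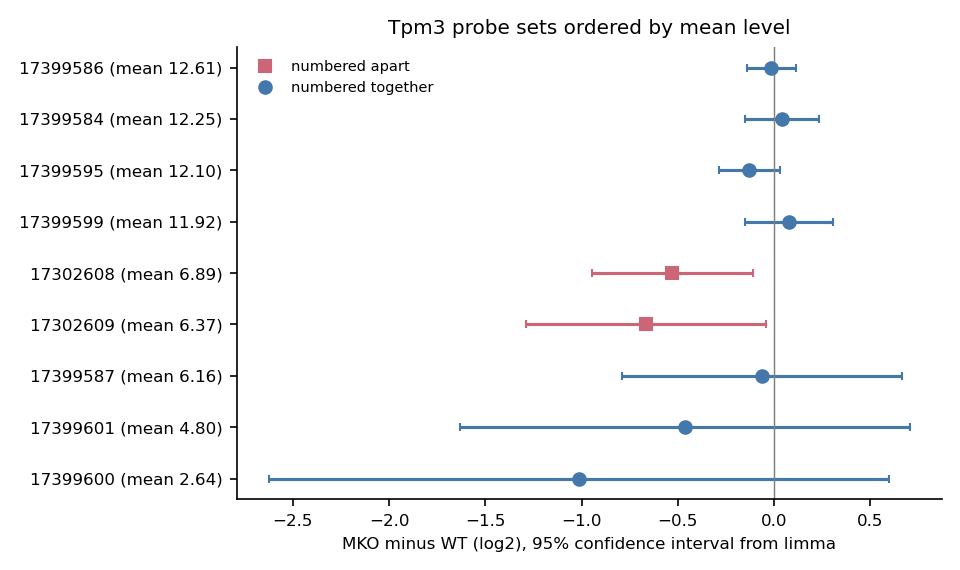
Difference MKO minus WT of the 9 Tpm3 probe sets (horizontal axis, log2, with the 95% confidence interval from limma), ordered by mean level. The 4 probe sets with means from 11.9 to 12.6 lie between −0.13 and 0.08, the pair numbered apart (red squares) lies at −0.53 and −0.67, and the dimmest lies at −1.01.

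Markers of other cells of the muscle were set beside Tpm3. Of 10 smooth muscle markers 5 were lower and 5 higher, and their summed level (log2 of the sum of unlogged values) ran from 9.80 to 9.88 in WT and from 9.71 to 9.88 in MKO. Of 8 fibroblast markers 7 were lower, with a summed level of 11.3 to 11.5 in WT and 11.1 to 11.5 in MKO. All 8 endothelial markers were lower, with a median of −0.16 and summed levels of 10.2 to 10.6 in WT and 10.1 to 10.4 in MKO. Cldn5, a tight junction gene of endothelium, had the smallest p among them, at 5.53, 5.98 and 5.72 in WT and at 4.92, 5.05 and 5.07 in MKO, a difference of −0.73 (SE 0.15, adjusted p = 0.666 by limma) with the groups apart. Of 7 macrophage markers 6 were lower, with 8.14 to 8.40 in WT and 7.87 to 8.11 in MKO, the only list of 10 whose summed levels did not overlap. Of all single genes, 9.25% did not overlap between the groups and 46.6% were higher in MKO. The summed levels of the other lists overlapped, with 5 of 6 tenocyte, 1 of 4 Schwann cell, 4 of 6 adipocyte, 3 of 5 satellite cell, 4 of 8 cardiac muscle and 2 of 2 erythroid markers lower. Their part in the Tpm3 values was not tested.

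Across all 114 probe sets of the 10 genes, the size of a difference followed the level of the probe set. The 67 with a mean of at least 9 differed by −0.30 to 0.27, with a median size of 0.08, and 65 of them by less than 0.2. Over all 13394 rows of that level the median size was 0.10 and 80.7% differed by less than 0.2. The 31 members' probe sets from 5 to below 9 had a median size of 0.22, and the 16 below 5 one of 0.49, with differences from −1.88 to 1.31. Over all rows of those levels the median size was 0.20 and 0.34. Spread among mice of a group rose the same way, with a median SD of 0.12, 0.43 and 0.76 in the bright, middle and dim probe sets. Over all rows of these levels the median SD was 0.14, 0.34 and 0.58. Of the 114, 55 were in the top 1% of rows by level, and the highest value in the table was 13.3. No measure of saturation was used here.

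**Figure D4:**
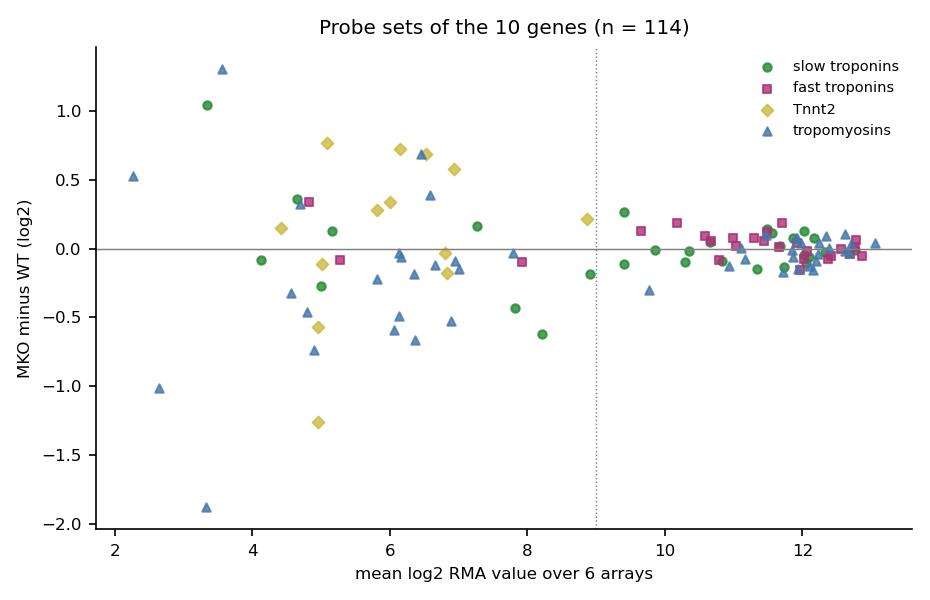
Difference MKO minus WT (vertical axis, log2) of the 114 probe sets against their mean log2 RMA value over 6 arrays, by gene class, with a dotted line at 9. The 67 probe sets to the right of the line lie between −0.30 and 0.27, and those to the left reach −1.88 and 1.31.

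In the test by limma over all rows, 0 of the 114 probe sets passed the adjusted threshold, the background being 0%. They split into 51 higher and 63 lower, where 48.7% of all rows were higher. Of them 6 had an unadjusted p under 0.05 (background 5%), 6 lower and 0 higher (background 2.8% and 2.2%). In 8 of them the groups did not overlap (background 9.86%), with MKO higher in 4 and lower in 4 (background 4.81% and 5.05%). Beside the Tpm3 pair, the 6 held 17217628 and 17217637 of Tnni1, 17217659 of Tnnt2 and 17528433 of Tpm1, all lower in MKO. In Tnni1, 17217628 stood at 7.99, 8.02 and 8.10 in WT and at 7.36, 7.69 and 7.76 in MKO, a difference of −0.43 (SE 0.17). The groups did not overlap there. The 5 brighter Tnni1 probe sets differed by −0.13 to −0.05, all lower. In Tnnc1, 17298380 was higher in every MKO array, at 9.53, 9.60 and 9.49 against 9.19, 9.17 and 9.47, a difference of 0.27 (SE 0.12). In Tnnc2, 17394268 was higher in every MKO array as well, by 0.19 (SE 0.09). For Tnnt1, Tnnc1, Tnnt3, Tnni2, Tnnc2 and Tpm2 no probe set reached an unadjusted p of 0.05 (limma).

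Bright probe sets of 1 gene went opposite ways in several members. In Tnnt1, 17485779 was higher in every MKO array (12.04, 11.84 and 12.002 in WT, 12.15, 12.04 and 12.08 in MKO, a difference of 0.13 with SE 0.07), while 17485781 differed by −0.15 (SE 0.10) with overlap. In Tnnt3, 17485247 differed by 0.18 (SE 0.11) and 17485249 by −0.15 (SE 0.08), and both overlapped. The 2 Tnni2 probe sets with the smallest p were both higher, 17485223 by 0.12 (SE 0.09) and 17485222 by 0.07 (SE 0.05). The brightest Tnnc2 probe set, 17394270, differed by −0.05 (SE 0.05) and 17298384 of Tnnc1 by −0.10 (SE 0.08), each against the sign of the probe set named above. In Tpm2, 17424658 gave the largest difference among the 67 bright probe sets, −0.30 (SE 0.18), with 10.08, 9.57 and 10.12 in WT and 9.72, 9.34 and 9.81 in MKO. Tpm2 probe set 17424665 differed by −0.15 (SE 0.08). Among dim probe sets, 17528450 of Tpm1 stood at 5.61, 5.10 and 5.10 in WT and at 4.58, 4.71 and 4.31 in MKO, a difference of −0.74 (SE 0.34) with the groups apart. Tnnt2 probe set 17217663 differed by 0.58 (SE 0.31), against the −1.26 (SE 0.44) of 17217659.

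Exon use was examined by testing whether a probe set departed from the others of its gene (limma diffSplice, adjusted over 231434 probe sets). Of the members' 114, 1 passed: Tpm1 probe set 17528433, with a departure of −1.90 (adjusted p = 0.0316), against 0.181% of all probe sets tested. At an unadjusted p under 0.05 there were 5 (background 5.32%). On simulated data diffSplice called 439 unchanged probe sets at the adjusted threshold, where 420 were called over all genes here. The Tpm1 probe set stood at 4.66, 4.40 and 3.72 in WT and at 1.91, 1.41 and 3.83 in MKO, so MKO replicate 3 lay inside the WT range. With the own spread of each probe set in place of that of the gene, a form chosen after seeing the data, it did not pass (adjusted p = 0.987). The call was also lost with the replicate number as a block (adjusted p = 0.127) and without WT replicate 1 or 2 or MKO replicate 1 or 2 (adjusted p = 0.436, 0.228, 0.0765 and 0.564 in that order). Tnnt2 probe set 17217659 departed by −1.50 (adjusted p = 0.281 by diffSplice) and Tpm1 probe set 17528438 by 1.44 (adjusted p = 0.247 by diffSplice). The latter passed without MKO replicate 1 (departure 1.99, adjusted p = 0.0266 by diffSplice). The 4 bright Tpm3 probe sets departed by 0.20 to 0.43 and did not pass by diffSplice. On simulated data diffSplice found 9 of 100 departures of 1, so it could not be expected to find departures this small. With the own spread of each probe set (limma) their unadjusted p ran from 0.0041 to 0.078, and they did not pass (adjusted p = 0.987). The bright Tpm3 probe sets themselves differed between the groups by only −0.13 to 0.08. The others they were set against included the pair numbered apart (−0.53 and −0.67), uncertain as a measure of Tpm3, and the dimmest (−1.01). Among 16 splicing factors known to act on muscle exons, 4 were higher and 12 lower in MKO, with a median difference of −0.06. Of all genes 46.6% were higher. An unadjusted limma p under 0.05 was reached by 0 of the 16, against 4.33% of all genes. Rbm20, which acts on titin exons, differed by −0.16 (SE 0.13), and Srsf2, a general exon enhancer factor, by −0.10 (SE 0.09).

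Slow and fast isoforms were then compared as the log2 ratio of slow to fast within each array, where only the change between arrays carries meaning. For troponin T the ratio was −1.86, −1.87 and −1.79 in WT and −1.69, −1.93 and −1.81 in MKO. For troponin I it was −1.64, −1.57 and −1.45 in WT and −1.38, −1.88 and −1.59 in MKO. For troponin C it was 0.16, 0.04 and 0.34 in WT and 0.17, 0.11 and 0.12 in MKO. The groups overlapped in all 3, and the ratios changed by 0.03 (SE 0.07), −0.06 (SE 0.16) and −0.05 (SE 0.09) from WT to MKO. The ratio of Tpm3 to Tpm1 was 0.39, 0.60 and 0.36 in WT and 0.57, −0.01 and 0.09 in MKO, a change of −0.24 (SE 0.19), and of 0.00 (SE 0.12) over the brighter probe sets. Without 1 array that change ran from −0.41 (without MKO replicate 1) to −0.12 (without MKO replicate 2). In the brighter probe sets the ratio of Tnni1 to Tnni2 was 0.21, 0.21 and 0.35 in WT and 0.17, −0.02 and 0.18 in MKO, a change of −0.15 (SE 0.08) with the groups apart. No p is given for ratios of members.

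**Figure D5:**
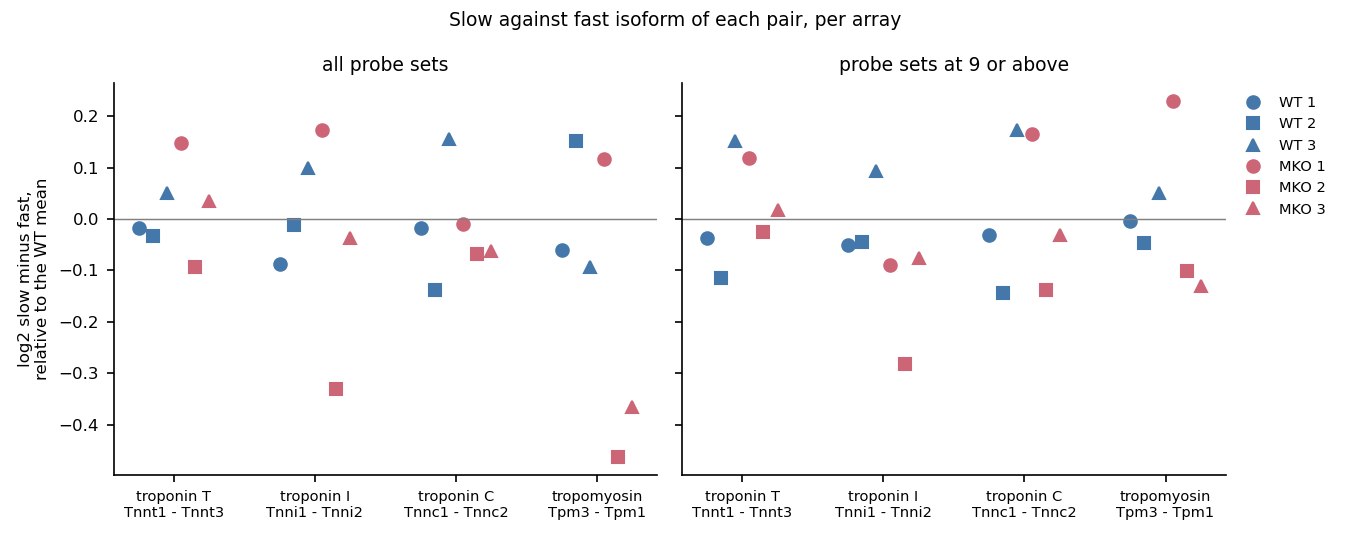
Log2 ratio of the slow to the fast isoform per array (vertical axis, relative to the WT mean) for troponin T, I and C and for tropomyosin, over all probe sets (left) and over probe sets with a mean of at least 9 (right). WT is blue and MKO red, and the groups overlap in all 4 pairs on the left and in 3 of 4 on the right.

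The balance of slow to fast troponins was also followed mouse by mouse. The mean deviation of the slow troponins from their WT mean minus that of the fast was −0.04, −0.06 and 0.10 in WT and 0.10, −0.16 and −0.02 in MKO. Over all probe sets, as here, the lowest and the highest of the 6 values were both in MKO. Over probe sets with a mean of at least 9 the values were −0.04, −0.10 and 0.14 in WT. In MKO they were 0.06, −0.15 and −0.03 there, so the highest was then in WT replicate 3. In WT replicate 3, 18 of the 20 bright slow troponin probe sets lay above their mean over the arrays, against 5 of 20 in WT replicate 2 and 5 of 20 in MKO replicate 2. In MKO replicate 2, 17 of 23 bright fast troponin probe sets lay above their mean, and in MKO replicate 1 only 5 of 23. Probe sets of 1 array share its RNA and are not replicates. Myh4 had its lowest value in MKO replicate 1 and its highest in WT replicate 3, the arrays with the highest slow minus fast values of their groups. Over the 6 arrays, AI316807 lay nearest to the slow troponin profile, with a root mean square distance of 0.01 among 11397 genes, followed by Hhipl1, Nova2, Exosc7 and Nkx2-9. Nearest to the fast profile was Il3ra (0.02, among 11566 genes), followed by Scaf8, Eif4g1, Ppm1a and Kdm3b. With 6 arrays and this many genes such nearness is a description only.

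Partner genes of the contractile apparatus were set beside the members. None of these genes passed the adjusted threshold. Over all genes 46.6% were higher in MKO, and in 4.99% all MKO arrays lay below all WT arrays. Of 12 slow fibre partners 11 were lower in MKO, with a median of −0.05, and 4 were lower and 0 higher at an unadjusted limma p under 0.05, against 2.41% of all genes lower. Myl6b, a light chain of slow and embryonic myosin, stood at 8.64, 8.76 and 8.71 in WT and at 8.13, 8.24 and 8.31 in MKO, a difference of −0.48 (SE 0.09). The others were the slow tonic myosin gene Myh7b (−0.39, SE 0.13), the muscle LIM protein gene Csrp3 (−0.21, SE 0.09) and the stretch-responsive Ankrd2 (−0.17, SE 0.07), the last named after its value was seen. In these 4 genes all MKO arrays lay below all WT arrays. Myh7, the main slow myosin, differed by −0.10 (SE 0.08) with overlap.

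Of 12 fast fibre partners 10 were lower, with a median of −0.19 that turned to 0.03 without MKO replicate 1. Myh4 (−2.51, SE 1.11) and Casq1, which stores calcium in the reticulum (−0.24, SE 0.11), had an unadjusted limma p under 0.05, and both overlapped between the groups. Mylpf, the fast regulatory light chain, differed by −0.22 (SE 0.12).

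Of 15 thin filament partners 13 were lower, with a median of −0.07. At an unadjusted limma p under 0.05 there were 3, all lower, against 2.41% of all genes. Kbtbd5, now Klhl40, which stabilises nebulin and leiomodin, stood at 7.95, 8.50 and 7.86 in WT and at 7.50, 7.65 and 7.50 in MKO, a difference of −0.55 (SE 0.15) with the groups apart. Tmod1, which caps the pointed end of the filament, differed by −0.28 (SE 0.12), also with the groups apart, and Kbtbd10, now Klhl41, by −0.16 (SE 0.07) with overlap. Tpm4, the tropomyosin of nonmuscle cells, differed by −0.15 (SE 0.12). The listed regulators of fibre type went both ways, 8 higher and 17 lower of 25. At an unadjusted limma p under 0.05 there was 1 each way, against 1.92% of all genes higher and 2.41% lower. Vgll2, a TEAD cofactor, was higher in MKO by 0.20 (SE 0.09). The myogenic factor Myog stood at 6.82, 7.04 and 7.10 in WT and at 6.73, 6.39 and 6.32 in MKO, a difference of −0.51 (SE 0.14), with every MKO array below the WT arrays. Ppp3cb, a catalytic subunit of calcineurin, differed by −0.18 (SE 0.11). Of 11 developmental and regeneration genes 8 were lower, with a median of −0.14 and 3 at an unadjusted limma p under 0.05, all lower. Myog, counted among the regulators too, is in that 3. Myh3, the embryonic myosin, differed by −0.70 (SE 0.15) and Ankrd1 by −0.51 (SE 0.20), while Tnnt2, which developing fibres also express, stood at 0.12 (SE 0.13).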

How the data were processed

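RNA from the soleus of 3 WT and 3 MKO mice was measured on Affymetrix mouse 2.0 ST arrays. The authors deposited log2 expression after RMA in Affymetrix Expression Console, per the submitters' processing notes, and the sources used here give no version, genome build or annotation release. The 269751 rows were taken as exon-level probe sets: 233753 carried 1 gene symbol in the platform's annotation and were averaged per gene, while 5106 with several symbols and 30892 with none were not. RefSeq names, neighbours and promoters are of GRCm38.p6.

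The fits used limma 3.58.1 (lmFit, eBayes with a variance trend) under R 4.3.3, MKO minus WT, two-sided, adjusted over all 23152 genes or all rows. The local pooled error test named in the design text was not run, as its package is not installed. The members, partner lists and marker lists were chosen with earlier results of these data known. Of 162 list entries 152 matched by symbol, 3 by synonym and 7 not at all. Named genes were the members, the genes lowest in p of each partner list (up to 3) and marker list (up to 2, given here as list totals), the 2 probe sets lowest in p of each member, and the 5 genes nearest in profile to each troponin set. Nearness was sought among genes above the median level that varied over at least 0.5 times the range of the profile. Alternatives were other variance models, array weights, a replicate block, other normalizations, filters and probe set summaries, and each array left out.

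The fits were tested on simulated data of these levels, drawn independently from normal distributions with the spreads as moderated by limma. Of 100 genes shifted by 1 log2 unit in 23152 the gene fit called 92, of 100 shifted by 0.5 it called 23, and it called 20 unchanged genes. In 233753 simulated probe sets, diffSplice recovered 60 of 100 departures of 2 and called 439 unchanged ones, against 43 and 6 with the own spread of each probe set. Of 100 departures of 1, diffSplice recovered 9 and the form with own spread 11. The number of arrays limits the precision. Tables and figures were made with Python 3.11.15.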

Additional observations from a re-analysis of the deposited data

How the results depend on the processing

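With 3 mice per group, differences of the size seen in most members are within the error, so their sign is not settled. In the MKO minus WT fit, 0 of the 10 genes passed the adjusted threshold under the 16 alternatives run on genes (Tnnt2 has no probe set at 9 or above), and 0 of the 114 probe sets under the 10 run on probe sets. The unplanned alternatives were the probe sets at 9 or above, Tpm3 without its separately numbered pair, and the own spread of each probe set. The difference of Tpm3 stayed negative, from −0.53 with the median of probe sets to −0.01 with those at 9 or above (−0.38 to −0.22 with 1 array left out). Tnni1 and Tnnt2 also depended on the summary. With the median of probe sets Tnni1 stood at −0.31 and Tnnt2 at 0.41, and with probe sets above the median row Tnni1 stood at −0.22. Signs turned for Tnnt1 with the median of probe sets (−0.0040) and with array weights (−0.0094), for Tnni1 with quantile normalization (0.0025), for Tnnc1 and Tnni2 with the median of probe sets (−0.083 and −0.048), for Tnnt3 with array weights (0.00055), median centring (0.021) and quantile normalization (0.014), and for Tpm2 with quantile normalization (0.016). With 1 array left out, Tnni1 ranged from −0.15 to 0.10 (without MKO replicate 2), Tnnc1 from −0.052 (without WT replicate 2) to 0.11, Tnnt3 from −0.027 to 0.031 and Tpm1 from −0.14 to 0.035 (both highest without MKO replicate 1).

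Probe sets of members past the threshold for departure, 1 in the reported fit, were 0 with a replicate block and with the own spread of each probe set. With 1 array left out they were 0 to 2. They were also 0 for rows above the median row (4.84), a run that could not call Tpm1 probe set 17528433, as its mean of 3.32 left it out. With the median of probe sets the slow to fast ratio changed by −0.26 for troponin I, −0.22 for troponin C and −0.46 for tropomyosin, the last −0.10 with probe sets above the median row and −0.41 to −0.12 with 1 array left out. Of all genes, 0 were higher and 0 lower at an adjusted limma p under 0.05 (444 and 558 at an unadjusted p under 0.05). With array weights 0 were higher and 1 lower, and with 1 array left out 0 to 1 each way. At an unadjusted p, array weights gave 805 higher and 1000 lower, genes above the median level 129 and 371, and median centring 354 lower against 545 higher. The range without 1 array was 300 to 607 higher and 393 to 975 lower. The median of the slow partners was −0.11 with the median of probe sets, −0.093 with probe sets at 9 or above and with array weights, −0.010 with quantile normalization, and −0.084 to −0.014 with 1 array left out. For the fast partners it ran from −0.28 to 0.028 with 1 array left out. The regulators stood at 0.024 with probe sets at 9 or above. The developmental genes stood at −0.22 for genes above the median level, −0.24 with the median of probe sets, −0.065 with probe sets above the median row and −0.32 with those at 9 or above. The cause of these shifts was not tested.

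The sample titles give replicate numbers and do not say whether these pair the mice. Deviations of same-numbered mice from their group means correlated at −0.09, 0.09 and −0.24 over all genes, and WT replicate 3 correlated best with MKO replicate 1 (0.30). Centring within groups of 3 ties these correlations to each other, so they cannot decide whether the mice were paired. With the replicate block the difference of Tpm3 was −0.31 and 0 members passed.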
